A study of Mus musculus with 24 samples.

Results

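The first hour after an overdose of acetaminophen was examined in the liver of wild-type (WT) mice. The samples are the 3 livers labelled WT at 1 h and the 3 labelled WT at 0 h, which are 6 of the 24 RNA sequencing libraries of the study, each from 1 mouse. They were chosen by their labels alone. The study covers WT mice and mice with a hepatocyte-specific knockout of Egfr (KO), the gene of the epidermal growth factor receptor, at 0, 1, 3 and 12 h after acetaminophen (500 mg/kg), which makes 8 groups of 3 mice. The labels give no strain, age or sex, no vehicle, and no promoter for the knockout. They do not say whether the 0 h mice received anything. No mouse without the drug was taken at 1 h, so the drug cannot be told apart from handling or time of day in any change described here.

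Acetaminophen is cleared mainly by glucuronidation and sulfation, and at high dose a larger part is oxidised by cytochromes P450, Cyp2e1 above all, to a reactive quinone imine that consumes glutathione and binds mitochondrial proteins. Damage is seen in hepatocytes around the central vein. Within the first hour of a stress, cells transcribe immediate early genes, whose mRNAs are made without new protein and decay fast, and transcripts that are unstable disappear as soon as their synthesis slows.

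The 6 WT libraries held 20.9 to 35.6 M reads, of which 4.60 to 7.58 M were counted on genes. Mitochondrial ribosomal RNA took 39.7% to 43.1% of these counts, which left 2.64 to 4.31 M on other genes, so a level of a few CPM rests on few reads. CPM is the count of a gene relative to its library's TMM-scaled size. It does not allow levels of different genes to be compared, since long genes collect more reads. Hepatocyte markers summed to 31661 to 36326 CPM at 0 h against 36221 to 39934 CPM at 1 h. Most of this sum was albumin (Alb), with means of 19664 and 24719 CPM, which was not called. Of the 10 markers 6 had a change below 0, and their median change was -0.08 on the log2 scale. Egfr lay between 334 and 461 CPM in the WT mice at 0 h and between 332 and 407 CPM at 1 h, and the ranges overlapped. The library labelled KO 1 h replicate 1, used only where the genotypes are compared, had 335 CPM of Egfr. This lies within the WT range at 1 h, so its label is uncertain. The other KO 1 h libraries had 136 and 155 CPM, and the KO 0 h libraries 59.5 to 110 CPM. Over the whole series the genotypes overlapped: KO 3 h replicate 3 had 271 CPM (WT at 3 h: 303 to 633 CPM), while the WT 12 h libraries had 203 to 263 CPM.

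Of 13204 genes tested, 1068 (8.09%) passed an adjusted p of 0.05 between WT 1 h and WT 0 h in edgeR's quasi-likelihood test with Benjamini-Hochberg adjustment, 540 higher (4.09%) and 528 lower (4.00%) at 1 h. The median change over all tested genes was -0.01 on the log2 scale. Large changes lay more often above than below: 112 called genes were at least 4-fold higher and 55 at least 4-fold lower, whereas 285 and 275 had changed at least 2-fold. In 1029 of the called genes the 3 and 3 libraries did not overlap, which was so for 24.7% of all tested genes. Leaving out WT 1 h replicate 1 lowered the count to 684, leaving out WT 0 h replicate 3 to 710, and leaving out any other of the 6 libraries gave 718 to 800. Predicted genes, which are known by a clone name or number only, made up 308 of the calls (138 in the gene-strand counts), and 240 of the called genes had under 50% of their counts on their own strand. Such genes are not named below.

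**Figure D1:**
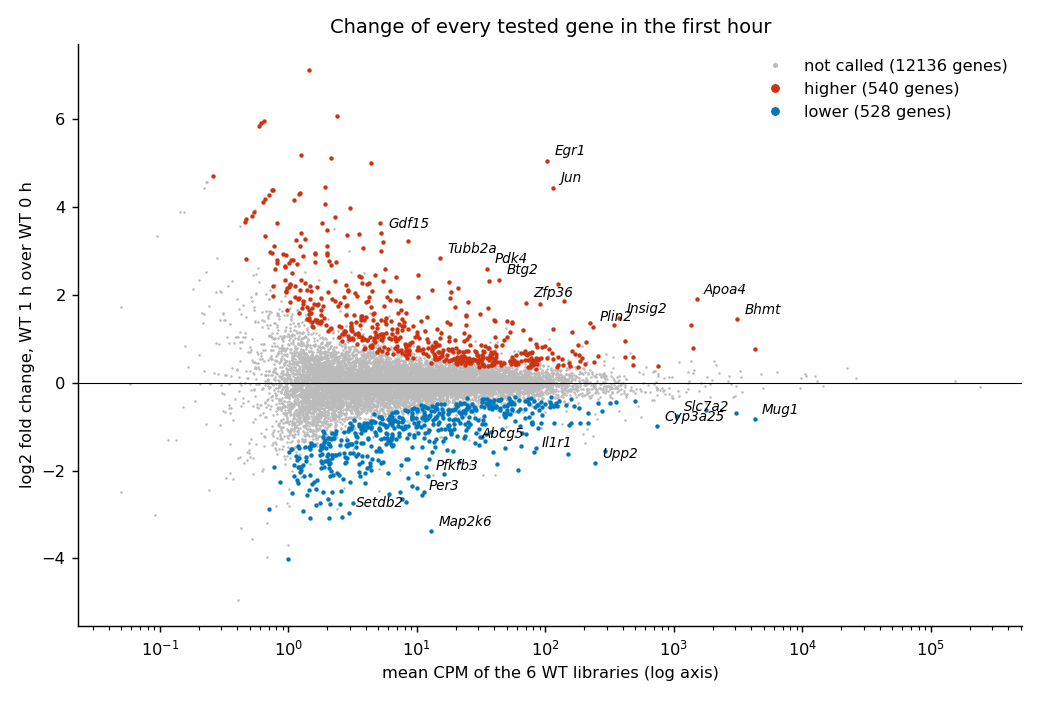
Change of each of the 13204 tested genes from WT 0 h to WT 1 h (log2 fold change, vertical axis) against its mean level in the 6 WT libraries (CPM, log axis), with called genes in red (540 higher) and blue (528 lower). Genes of all levels were called, among them 53 higher and 46 lower with a mean of at least 100 CPM in 1 of the groups.

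Short stretches of promoters show examples of elements known to control some of the rising and falling genes. The stretches were printed because they hold a motif and do not stand for their lists. All are from RefSeq on GRCm38.p6 and run 5′ to 3′ on the gene's strand, with the motif in capitals. The first 4 are from genes that rose and the last 2 from genes that fell. They are the cAMP response element (CRE, TGACGTCA) and an E-box (CACGTG) upstream of Dusp1 (chr17:26508563-26508642, minus strand), the serum response element core (CArG box) of Zfp36 (chr7:28379249-28379328, minus strand), the ATF4 and CHOP site (CARE, TGATGNAA, here on the other strand) of Atf3 (chr1:191183394-191183473, minus strand), the heat shock element core (GAANNTTC) of Hspa1b (chr17:34959299-34959378, minus strand), 2 D-boxes (TTATGTAA) of Per3 (chr4:151044806-151044885, minus strand) and 3 E-boxes of Ciart (chr3:95882267-95882348, minus strand).
Dusp1: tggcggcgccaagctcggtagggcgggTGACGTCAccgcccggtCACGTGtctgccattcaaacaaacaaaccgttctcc
Zfp36: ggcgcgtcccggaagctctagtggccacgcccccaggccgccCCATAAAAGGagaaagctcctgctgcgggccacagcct
Atf3: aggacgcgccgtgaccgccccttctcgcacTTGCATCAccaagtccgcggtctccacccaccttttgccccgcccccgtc
Hspa1b: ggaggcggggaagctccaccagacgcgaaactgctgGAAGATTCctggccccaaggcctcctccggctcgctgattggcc
Per3: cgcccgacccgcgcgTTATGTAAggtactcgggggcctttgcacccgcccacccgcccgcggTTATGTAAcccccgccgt
Ciart: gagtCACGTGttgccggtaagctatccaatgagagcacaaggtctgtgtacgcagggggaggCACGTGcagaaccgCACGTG
In windows of 300 bases (250 before and 50 after the start), searched on both strands, a CRE was found in 4.37% of the promoters of genes that rose, 1.95% of those of genes that fell and 3.38% of the 9621 tested genes that have a promoter in the table. The D-box, bound by the clock output factors, was in 1.67% of promoters of genes that fell and 0.852% of all. A sterol element (ATCACCCCA) also stood in 1.67% of those of genes that fell, against 0.312% of all. Each of these 2 shares rests on 6 of 359 promoters. The E-box was in 13.1% of promoters of genes that rose and 12.3% of those of genes that fell. The heat shock core stood in 10 of 18 heat shock genes with a promoter (55.6%, against 7.42% of all), and the CARE in 6 of 21 genes of the integrated stress response (28.6%, against 2.86%). An E-box stood in 5 of 17 clock genes (29.4%, against 11.4%). Among called members with a promoter, the CArG box stood in 1 of 12 immediate early genes and the CRE in 2 of 12. The CARE stood in 3 of 7 called genes of the integrated stress response and the heat shock core in 3 of 6 called heat shock genes. Of 11 called clock genes 3 had an E-box and 1 a D-box. Matches of a CRE and of an E-box can overlap at their ends, as they can in other pairs of motifs. A match is a description of the letters and not of a bound site.

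Immediate early genes had the largest share of higher members among the gene groups counted here. Of 29 tested, 15 rose and none fell, and the median change of the list was 1.15 (12 or 13 rose without any 1 library). Jun, a subunit of the AP-1 transcription factor, went from 13.1, 8.83 and 8.26 CPM in the 0 h mice, replicates 1 to 3, to 203, 263 and 193 CPM in the 1 h mice. Values of single mice are given in this order throughout. All 1 h mice lay far above all 0 h mice, a log2 change of 4.43 ± 0.25 (SE; adjusted p = 2.41e-10 in edgeR's quasi-likelihood test). Egr1, a zinc finger factor, went from 4.83 to 7.99 CPM up to 191 to 216 CPM. The AP-1 genes Fos, Jund and Fosl2 also rose, by 3.97 ± 0.67, 1.33 ± 0.18 and 1.22 ± 0.28 on the log2 scale, and their groups did not overlap. Fos remained low, at 4.13 to 7.28 CPM at 1 h. Among other early factors Ier2 rose by 2.29, Klf2 by 2.40 and Klf4 by 1.91, and Dusp1, the phosphatase that switches off p38 and JNK, by 2.15 ± 0.33.

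Some genes that bring about mRNA decay rose too, and of these Zfp36 and Btg2 were already counted among the immediate early genes above. Zfp36, whose protein binds AU-rich elements and recruits the deadenylase, went from 35.7, 25.6 and 31.7 to 108, 116 and 106 CPM. The 2 groups were tight and far apart, with a log2 change of 1.82 ± 0.14 (adjusted p = 2.41e-10 in edgeR's quasi-likelihood test). Btg2, which activates the same deadenylase, went from 15.1, 11.1 and 16.3 to 48.3, 96.4 and 73.4 CPM, again with no overlap (2.34 ± 0.28). Its relative Btg1 rose by 1.31 ± 0.17. Over the whole list of mRNA decay factors 5 of 36 rose and 2 fell, and its median was 0.01, so the core exonuclease and deadenylase genes were for the most part not called. Tent5c, a poly(A) polymerase that lengthens tails, fell by 0.92 ± 0.22.

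Among targets of p53, the damage-responsive factor, 5 of 20 rose and none fell (median 0.17). Cdkn1a, the cell cycle inhibitor p21, went from 4.38, 6.10 and 10.7 to 39.1, 24.1 and 25.3 CPM, a log2 change of 2.05 ± 0.41 (adjusted p = 0.00476 in edgeR's quasi-likelihood test). The highest 0 h mouse had less than any 1 h mouse. Trp53inp1, an autophagy and p53 cofactor gene, lay at 78.0 to 124 CPM at 0 h against 209 to 232 CPM at 1 h (1.16 ± 0.18). The kinase gene Plk3 rose by 1.39 ± 0.26, and Btg2 and Gdf15 complete the 5. Both of these are also counted in other lists, Btg2 in the 2 lists above and Gdf15 among the integrated stress response and the secreted factors below. Mdm2, the p53 ubiquitin ligase, did not pass, with 33.2 to 37.3 CPM at 0 h against 35.4 to 42.9 CPM at 1 h (0.12 ± 0.17, chosen after its values were seen).

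In the integrated stress response, the programme that ATF4 drives when translation is held back, 6 of 21 tested genes rose and 1 fell (median 0.14). Atf4 itself went from 25.1, 28.4 and 26.5 to 56.6, 59.1 and 47.1 CPM, with no overlap (1.03 ± 0.13, adjusted p = 3.41e-06 in edgeR's quasi-likelihood test). Atf3, a repressor induced by many stresses, went from 0.77, 0.84 and 0.27 CPM to 5.09, 8.27 and 6.11 CPM (3.39 ± 0.56). Trib3, an ATF4 target that restrains the response, was the gene that fell, from 2.84 to 3.15 CPM down to 0.67 to 1.49 CPM (-1.67 ± 0.35). Ddit3, which encodes CHOP, rose by 1.16 ± 0.28. Without WT 0 h replicate 1 its call was lost (adjusted p = 0.0565 in the same test) and 4 members of the list were called. ER chaperones and other genes of the unfolded protein response gave 1 call in 21, and 0 to 2 without any 1 library. Of 20 cytosolic aminoacyl-tRNA synthetases, which load amino acids onto tRNA, 3 rose and none fell (1 call in the gene-strand counts), among them the threonyl enzyme gene Tars1 by 0.67 ± 0.10.

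Heat shock genes, the cytosolic chaperones under HSF1, gave 6 calls of 23, all higher, and 22 of 23 had a change above 0 (median 0.27). Hspa1b, an inducible HSP70, went from 1.93, 3.78 and 3.86 to 16.9, 19.4 and 15.0 CPM (2.45 ± 0.37, adjusted p = 0.000125 in edgeR's quasi-likelihood test). The groups lay well apart, but reads that match a near-identical neighbour gene equally well were not counted, and the value is uncertain in that respect. The co-chaperone Bag3 rose by 0.74 ± 0.16 and the small heat shock gene Hspb8 by 0.69 ± 0.14. Abundant constitutive Hspa8 lay at 606 to 711 CPM at 0 h against 733 to 857 CPM at 1 h and did not pass (0.27 ± 0.13, chosen after its values were seen). Without WT 0 h replicate 3 the list held 3 calls.

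Genes of the cytoskeleton and of the factors that sense it, SRF and YAP, gave 7 higher and 2 lower of 32 (median 0.11). Tubb2a, a beta-tubulin, went from 3.61, 4.20 and 3.46 to 22.1, 17.0 and 40.7 CPM. That is a log2 change of 2.82 ± 0.29 (adjusted p = 1.24e-06 in edgeR's quasi-likelihood test), with WT 1 h replicate 3 highest. The alpha-tubulin gene Tuba1c rose by 1.04 ± 0.23, the cytoplasmic actin gene Actg1 by 1.71 ± 0.30 and the adhesion protein gene Vcl by 0.63 ± 0.12. Ccn1, a secreted matrix protein and YAP target, rose from 0.80 to 1.42 CPM up to 3.57 to 5.78 CPM (2.08 ± 0.42). Amotl2, another YAP target and an inhibitor of YAP, fell by 1.32 ± 0.18, so the list did not move as a block.

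Replication-dependent histone genes, whose mRNAs normally lack a poly(A) tail, rose in 6 of 12 cases with none lower (median 0.80), although the labels give the molecule as polyA RNA. H4c4 and H4c3 rose by 1.21 ± 0.22 and 0.86 ± 0.19 and reached 8.84 to 10.4 CPM and 9.37 to 11.7 CPM. The count of the list was 2 without WT 0 h replicate 1. It was 3 when WT 0 h replicate 3 was left out or in a fit of the 2 groups alone.

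**Figure D2:**
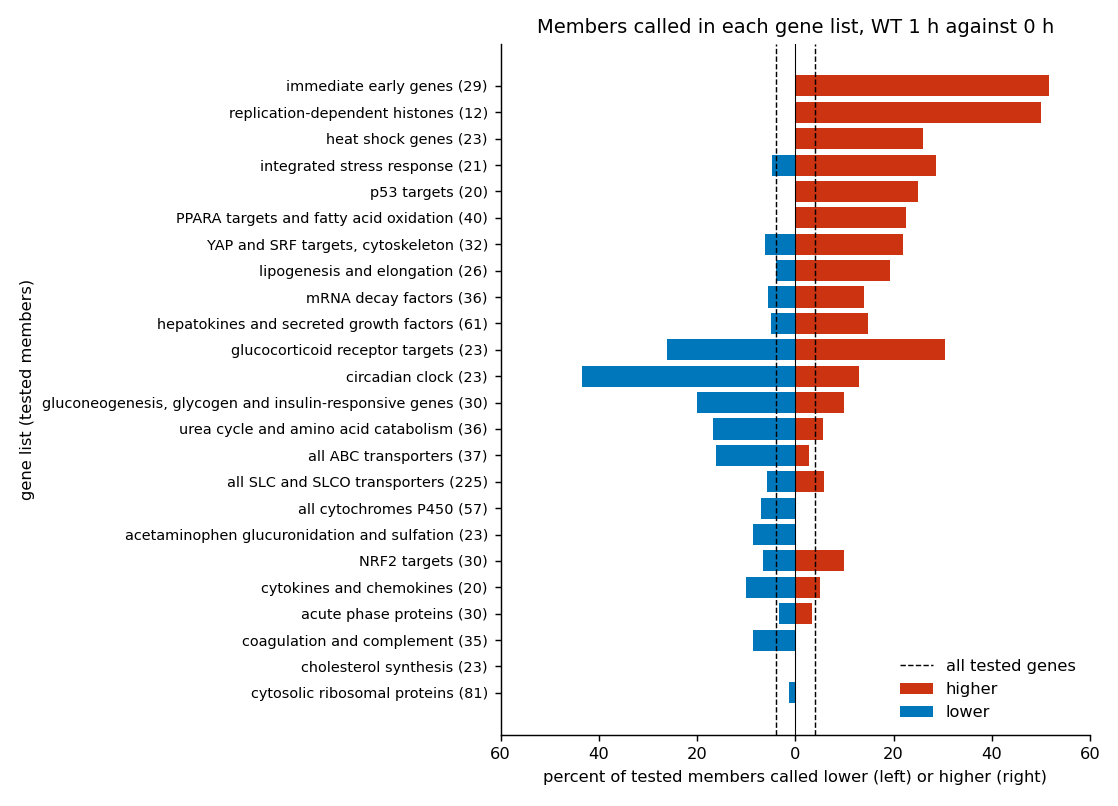
Share of the tested members of each gene list called higher (red, right) or lower (blue, left) at WT 1 h against WT 0 h, with the number of tested members in parentheses and the shares over all tested genes as broken lines. Immediate early genes have 15 of 29 members higher and the circadian clock 10 of 23 lower, while cholesterol synthesis has no member called in the fit of all groups.

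Genes of the liver clock moved in both directions, as its opposing limbs do over the day. Of 23 tested, 3 rose and 10 fell (median -0.62), and 9 to 13 were called without any 1 library. The activators rose: Bmal1 went from 3.48, 5.47 and 6.00 to 25.6, 17.7 and 20.0 CPM (2.10 ± 0.26, adjusted p = 4.97e-06 in edgeR's quasi-likelihood test). Npas2 and Clock, the partners of BMAL1, rose by 3.10 ± 0.56 and 0.55 ± 0.11. Among the genes that BMAL1 and its partners drive, Per3, a repressor of the loop, fell from 18.3, 14.1 and 23.3 CPM to 2.54, 3.71 and 3.31 CPM (-2.56 ± 0.36). Ciart, also a repressor, fell by 2.17 ± 0.31, the output factor Tef by 1.44 ± 0.15, the deubiquitinase gene Usp2 by 1.74 ± 0.33 and the nuclear receptor gene Nr1d2 by 0.87 ± 0.15. In each of these the 0 h and 1 h mice did not overlap. The labels give no time of day for any mouse.

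Part of the genes of fat use rose. Of 40 targets of PPARA, the receptor for fatty acids, and enzymes of fatty acid oxidation, 9 rose and none fell, and 34 of 40 lay above 0 (median 0.21). Pdk4, which spares glucose by shutting pyruvate dehydrogenase, went from 7.22, 10.1 and 12.7 to 50.5, 33.5 and 97.5 CPM (2.59 ± 0.54, adjusted p = 0.00625 in edgeR's quasi-likelihood test). All 1 h mice lay above all 0 h mice, and replicate 3 was highest. Plin2, the coat protein of lipid droplets, went from 136, 120 and 152 CPM to 314, 252 and 421 CPM (1.27 ± 0.17). Acot2, a mitochondrial acyl-CoA thioesterase, rose by 1.83 ± 0.33 and Mgll, the monoacylglycerol lipase, by 0.68 ± 0.11. Cpt1a, the entry step of mitochondrial oxidation, was not called, at 0.04 ± 0.13 (chosen after its values were seen). Without WT 0 h replicate 2 or WT 1 h replicate 3 the list held 5 calls.

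A few genes of fat synthesis rose in the same hour. In the list of lipogenesis and elongation 5 of 26 were higher and 1 lower (median 0.08), 3 in all without WT 0 h replicate 3. Insig2, which holds the sterol sensor in the ER, went from 192, 167 and 237 to 622, 469 and 551 CPM (1.46 ± 0.20, adjusted p = 3.20e-05 in edgeR's quasi-likelihood test). The elongase gene Elovl5 rose by 0.94 ± 0.15 and Acaca, acetyl-CoA carboxylase, by 0.78 ± 0.16. None of 23 genes of cholesterol synthesis was called and the median of that list was -0.29. In a fit of the 2 groups alone 3 of them were lower, and with no low-count filter 1.

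Fuel and amino acid genes gave more lower than higher calls. In the list of gluconeogenesis, glycogen and insulin response 3 of 30 were higher and 6 lower, and 3 in all were called without WT 0 h replicate 2 or WT 1 h replicate 1. Leaving out WT 0 h replicate 1 gave 4. Pfkfb3, which makes the activator of glycolysis fructose 2,6-bisphosphate, fell from 20.0, 16.2 and 23.4 CPM to 3.75, 4.99 and 5.12 CPM (-2.12 ± 0.46, adjusted p = 0.00773 in edgeR's quasi-likelihood test). Pfkfb1, the liver isoenzyme, fell by 0.86 ± 0.17, and their groups did not overlap. Of 36 genes of the urea cycle and amino acid catabolism 2 rose and 6 fell, and 3 were called without WT 0 h replicate 2 or WT 1 h replicate 3. Leaving out WT 0 h replicate 1, WT 0 h replicate 3 or WT 1 h replicate 1 gave 4 or 5. Hal, the first enzyme of histidine breakdown, fell by 0.92 ± 0.21, and Kynu of the kynurenine pathway rose by 0.67 ± 0.12. Upp2, a uridine phosphorylase, fell from 476, 372 and 294 CPM to 95.0, 134 and 92.7 CPM (-1.83 ± 0.33).

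Among enzymes that handle the drug, 4 of 57 cytochromes P450 fell (7.02%, against 4.00% of all tested genes). None rose, against 4.09% of all. There were 2 calls without WT 1 h replicate 1 and 10 (2 higher and 8 lower) in a fit of the 2 groups alone. Cyp3a25 went from 962, 1012 and 978 to 430, 644 and 407 CPM, with no overlap (-0.996 ± 0.16, adjusted p = 5.71e-05 in edgeR's quasi-likelihood test). Cyp3a59, of the same family, fell by 1.57 ± 0.29. Reads that match more than 1 member of the family equally well were not counted, so the levels of these 2 relatives are uncertain in that respect. Cyp2e1, the main activator of acetaminophen, lay at 3234 to 4304 CPM at 0 h against 2212 to 2502 CPM at 1 h (-0.68 ± 0.20, adjusted p = 0.0341 in the same test). Its groups did not overlap, but it lost the call in 5 of the 6 fits without 1 library, all except the one without WT 0 h replicate 2 (adjusted p = 0.0725 to 0.158 in those 5), with library size alone (0.0789) and with no low-count filter (0.224). None of 17 UDP-glucuronosyltransferases and 6 sulfotransferases was called, but most lay below 0. Of the first 16 lay below and 1 above (median -0.21), and of the second 5 below and 1 above (median -0.22). Over all tested genes 6744 lay below 0 and 6460 above (median -0.01). In the supply of donor substrates for these enzymes 2 genes fell. Papss2, which makes the sulfate donor PAPS, went from 161, 143 and 136 to 92.4, 126 and 83.8 CPM (-0.54 ± 0.13, adjusted p = 0.00802 in edgeR's quasi-likelihood test), and Ugp2, which makes UDP-glucose, from 128, 138 and 125 to 73.9, 94.6 and 95.5 CPM (-0.56 ± 0.15, adjusted p = 0.0141). Neither pair of groups overlapped. These were the 2 calls in a list of 23 genes of glucuronidation and sulfation (8.70% lower, against 4.00% of all tested genes). That list held none without WT 1 h replicate 1. Papss2 also lost its call without WT 0 h replicate 1 or WT 1 h replicate 3 (adjusted p = 0.0621 to 0.0955 over the 3 fits), and Ugp2 without WT 0 h replicate 2 (0.0598 to 0.121 over 2 fits).

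Of genes of glutathione and sulfur amino acids 6.90% rose, and of targets of NRF2, the factor of the antioxidant programme, 10% rose and 6.67% fell. Over all tested genes 4.09% rose and 4.00% fell. In the list of glutathione and sulfur amino acids 2 of 29 rose and none fell, and 1 was called without WT 0 h replicate 2 or WT 1 h replicate 1. Bhmt, which remethylates homocysteine to methionine with betaine, was 1 of them and had the largest rise in CPM of the named enzymes. It went from 1734, 1525 and 1771 to 4285, 5259 and 4056 CPM (1.43 ± 0.18, adjusted p = 1.87e-06 in edgeR's quasi-likelihood test). Gclc, the limiting enzyme of glutathione synthesis, lay at 46.0 to 78.6 CPM at 0 h against 76.2 to 85.2 CPM at 1 h and did not pass (0.34 ± 0.19, adjusted p = 0.323). Hmox1, the heme oxygenase often used as a marker of NRF2, went from 8.38, 11.1 and 8.66 to 13.0, 30.1 and 8.43 CPM. Only WT 1 h replicate 2 was clearly raised, and the groups overlapped (0.90 ± 0.53, adjusted p = 0.378 in the same test). Of 30 NRF2 targets 3 rose and 2 fell, and 0 to 2 were called without any 1 library, none of them without WT 1 h replicate 1. Gene-strand counts, the replicate block and the 2 groups alone each gave 3.

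Secreted factors gave a short list of rises. Of 61 hepatokines and growth factors 9 rose and 3 fell (14.8% and 4.92%, against 4.09% and 4.00% of all tested genes), with a median of 0.01. Without any 1 library 5 to 9 were called, 5 of them without WT 0 h replicate 1 or WT 1 h replicate 3. Leaving out WT 0 h replicate 2 gave 7. Gdf15, a stress hormone that acts on the hindbrain, went from 1.42, 0.63 and 0.53 CPM to 11.0, 8.27 and 9.75 CPM, well apart (3.40 ± 0.52, adjusted p = 0.000314 in edgeR's quasi-likelihood test). Agt, angiotensinogen, rose by 0.58 ± 0.14 from 95.4 to 110 CPM at 0 h. Fgf21, the fasting hormone, went from 0.64, 0.63 and 1.07 to 8.84, 2.85 and 8.92 CPM, with WT 1 h replicate 2 lowest. Its change of 3.07 ± 0.82 (adjusted p = 0.0285 in the same test) lost the call without each library but that one (0.0781 to 0.106) and with no low-count filter (0.0672). Tsku, a secreted hepatokine of lipid metabolism, fell by 1.34 ± 0.18 from 42.0 to 55.0 CPM at 0 h.

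Inflammatory genes did not rise as a group. Of 20 cytokines and chemokines 1 rose (5%, against 4.09% of all tested genes) and 2 fell (10%, against 4.00%). In this list 17 of 20 lay below 0 (median -0.38). The list held 1 call without WT 0 h replicate 1, WT 0 h replicate 2 or WT 1 h replicate 1, and 5 with no low-count filter. Acute phase proteins gave 1 higher and 1 lower of 30 (3.33% each, near the shares of all tested genes), but 0 or 1 call when any 1 of the 6 libraries was left out. Of these 30, 24 lay below 0 and 6 above (median -0.21). Targets of NF-kB gave none higher and 2 lower of 21 (9.52% lower, against 4.00% of all tested genes), and 4 calls with no low-count filter. Cxcl13, a chemokine for B cells, fell from 2.06 to 4.26 CPM down to 0.43 to 0.67 CPM (-2.64 ± 0.53). Of 29 interferon-stimulated genes 1 rose and 1 fell (3.45% each), with 0 or 1 call without any 1 library. Of 17 genes of IL-6 and STAT3 signalling 1 rose and 2 fell (5.88% and 11.8%), and 14 were not called. The 2 that fell encode receptors. Il1r1, the interleukin-1 receptor, went from 118, 91.2 and 157 to 56.4, 36.1 and 30.1 CPM (-1.58 ± 0.26, adjusted p = 0.000631 in edgeR's quasi-likelihood test). Il6ra, the interleukin-6 receptor, went from 49.1, 36.2 and 49.7 to 24.5, 18.5 and 13.7 CPM (-1.25 ± 0.17). In both, every 1 h mouse lay below every 0 h mouse. The 2 NF-kB targets that fell were Irf1, an interferon-regulated factor, by 1.56 ± 0.27, and the adhesion gene Vcam1, by 1.29 ± 0.22. In another list, of 24 genes of the EGF receptor family, its ligands and other growth factor receptors, 1 rose and 2 fell (4.17% and 8.33%). Among these Erbb3, a relative of the EGF receptor, fell by 0.60 ± 0.12.

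Kupffer cell markers were lower in WT at 1 h. All 12 of 12 had a change below 0, 7 were called, and their summed level was 100 to 182 CPM at 0 h against 69.4 to 80.0 CPM an hour later. Cd163, a scavenger receptor of resident macrophages, went from 17.1, 25.2 and 25.2 to 9.11, 12.1 and 11.2 CPM (-1.05 ± 0.23, adjusted p = 0.00424 in edgeR's quasi-likelihood test). Marco, another one, had 3.87, 10.9 and 24.8 CPM at 0 h against 1.74 to 2.81 CPM at 1 h. It was called (-2.65 ± 0.57, adjusted p = 0.00693), but not in a fit of the 2 groups alone (0.195). Fewer cells of a type and less RNA per cell cannot be told apart in whole liver. With 1 library left out the number of called markers fell to 2 (WT 0 h replicate 3, WT 1 h replicate 2 or WT 1 h replicate 3), to 3 (WT 1 h replicate 1) or to 4 (WT 0 h replicate 2), and was 9 when the other one (WT 0 h replicate 1) was left out. In KO mice the Kupffer markers summed to 80.3 to 103 CPM at 0 h against 89.6 to 128 CPM at 1 h, where none was called, with or without KO 1 h replicate 1. Red blood cell markers were lower as well, without passing: all 5 of 5 tested had a change below 0 (median -0.91), and the 7 markers of the list summed to 63.8 to 147 CPM at 0 h against 42.9 to 64.6 CPM at 1 h in WT, and to 64.9 to 95.1 against 46.3 to 70.0 CPM in KO. The part of blood in the fall of the Kupffer markers was not tested. No marker of sinusoidal endothelium (17 tested) or of stellate cells (15) was called. Stellate markers summed to 226 to 263 CPM at 0 h against 194 to 214 CPM at 1 h. Cxcl13 and Vcam1 are known from cells other than hepatocytes too, and the part of a shift in cells in their falls was not tested. Neutrophil markers summed to at most 2.41 CPM in any WT library of either time, with Ngp at 0, and T and NK cell markers to at most 3.60 CPM, with Nkg7, Trac and Trbc2 at 0.

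Of 225 solute carriers 13 rose and 13 fell (5.78% each, against 4.09% and 4.00% of all tested genes), and 18 to 24 were called without any 1 library. Of the 39 mitochondrial carriers among them 3 rose and 1 fell (median -0.0017). The one that fell, Slc25a48 (-1.15 ± 0.37, adjusted p = 0.0489 in edgeR's quasi-likelihood test), lost its call without any 1 of the 6 libraries (0.0671 to 0.189) and under 8 of 9 other settings. Slc25a25, which exchanges ATP-Mg for phosphate under calcium control, went from 34.5, 39.1 and 48.1 to 142, 118 and 158 CPM (1.78 ± 0.38, adjusted p = 0.00697 in edgeR's quasi-likelihood test). Slc25a47, a carrier found mainly in liver, rose by 1.35 ± 0.15 and the glutamate carrier Slc25a22 by 0.88 ± 0.17. No 0 h mouse reached the level of a 1 h mouse in these 3 genes. In the plasma membrane, the manganese exporter Slc30a10 rose by 1.13 ± 0.18, the monocarboxylate carrier Slc16a1 by 0.69 ± 0.12 and the bicarbonate carrier Slc4a4 by 0.63 ± 0.12. The phosphate carrier Slc34a2 was near absent at 0 h (0 to 0.39 CPM) and reached 3.08 to 3.99 CPM (4.07 ± 0.73).

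On the falling side, Abcg5 and Abcg8, which together form the sterol exporter of the bile canaliculus, both fell. Abcg5 went from 42.7, 42.2 and 37.4 to 16.1, 15.0 and 16.0 CPM (-1.38 ± 0.18, adjusted p = 4.09e-06 in edgeR's quasi-likelihood test). Abcg8 went from 47.6, 41.2 and 39.97 to 16.2, 16.3 and 22.8 CPM (-1.23 ± 0.14, adjusted p = 3.55e-07). Both pairs of groups were tight and apart. Over 37 ABC transporters 1 rose and 6 fell (2.70% and 16.2%, against 4.09% and 4.00% of all tested genes), 3 in all without WT 0 h replicate 3. The arginine carrier Slc7a2 fell from 1247 to 1438 CPM down to 714 to 858 CPM (-0.77 ± 0.18), the creatine carrier Slc16a12 by 1.07 ± 0.20 and Slc17a2 by 0.91 ± 0.17. Of 29 hepatic drug and organic ion transporters 2 rose and 4 fell (6.90% and 13.8%), Abcg5 and Abcg8 among the latter. Slc10a1, the sodium-dependent carrier that takes up bile salts, was not called and lay at 414 to 437 CPM at 0 h against 334 to 453 CPM at 1 h (-0.10 ± 0.13, chosen after its values were seen).

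**Figure D3:**
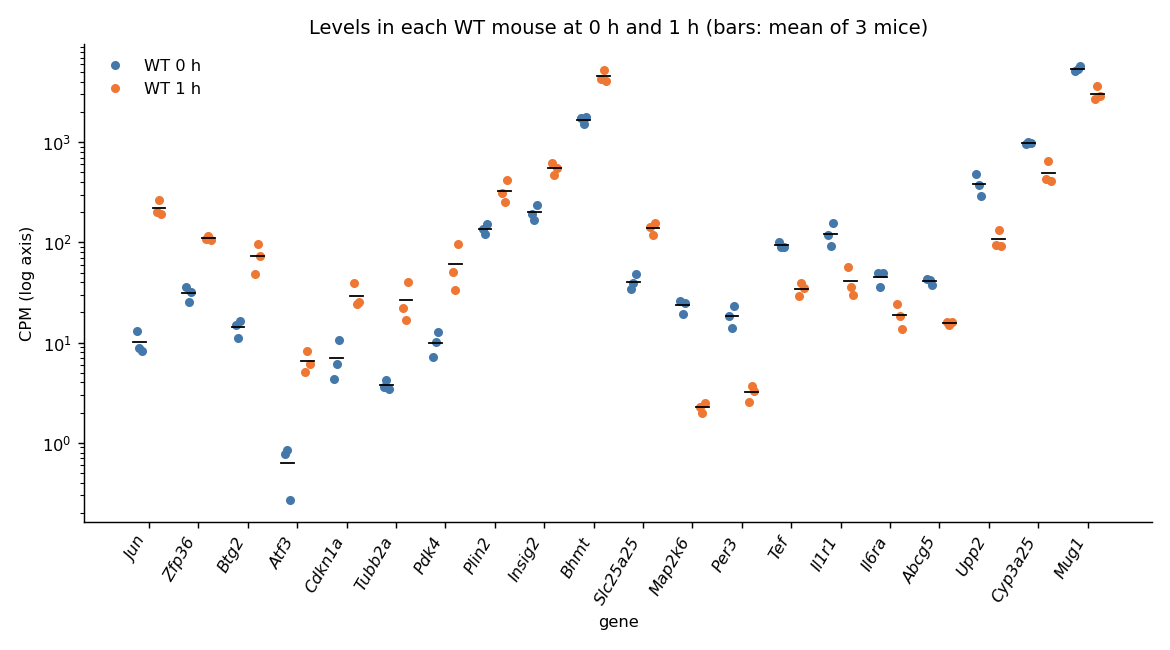
Level in each mouse (points, CPM on a log axis) at WT 0 h (blue) and WT 1 h (orange) for 20 named genes, with the mean of 3 mice as a bar. In each gene the 2 sets of 3 points do not overlap, from Jun (8.26 to 13.1 against 193 to 263 CPM) to Mug1 (5137 to 5799.9 against 2683 to 3635 CPM).

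Some transcripts were far lower in the 1 h mice than in the 0 h mice. Map2k6, the kinase upstream of p38, went from 26.2, 19.3 and 24.9 to 2.28, 2.00 and 2.48 CPM, the largest fall among the named genes (-3.39 ± 0.27, adjusted p = 4.16e-10 in edgeR's quasi-likelihood test). Its level was 9.56% of that at 0 h. The 1 h mice are other animals, and their own level at 0 h is not known. If it equalled that of the 0 h mice, synthesis had stopped at 0 h and decay were first order, a bound on the half-life follows. It would be at most 17.7 min for Map2k6, and at most 23.5 min for Per3, at 17.0%. With some synthesis going on, the half-life would be shorter. Setdb2, a histone methyltransferase gene, fell from 2.73 to 6.66 CPM down to 0.17 to 1.07 CPM (-2.96 ± 0.48). A list of transcripts known for short life did not fall as a group: 8 of 68 rose and 5 fell (median -0.05), 8 in all without WT 1 h replicate 2. Both shares, 11.8% higher and 7.35% lower, were above those of all tested genes (4.09% and 4.00%).

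Of 39 liver transcription factors 1 rose and 2 fell (2.56% and 5.13%, against 4.09% and 4.00% of all tested genes), with a median of 0.05. Tbx3, a WNT target, rose from 11.0, 11.8 and 14.8 CPM to 42.7, 31.4 and 32.7 CPM (1.51 ± 0.25, adjusted p = 0.000501 in edgeR's quasi-likelihood test). Foxa2, a pioneer factor of liver, fell from 12.4, 17.4 and 10.1 CPM to 4.82, 6.56 and 5.12 CPM (-1.24 ± 0.29, adjusted p = 0.00659). Neither pair of groups overlapped. Outside the list Id2, an inhibitor of helix-loop-helix factors, rose by 1.70 ± 0.22. Targets of the glucocorticoid receptor split: 7 of 23 rose and 6 fell (7 to 12 in all without any 1 library, 7 without WT 0 h replicate 1, 8 without WT 0 h replicate 2 or WT 1 h replicate 3), with the kinase gene Sgk1 higher by 1.00 ± 0.15 and the chaperone gene Fkbp5 and the factor gene Zbtb16 lower by 0.94 ± 0.21 and 1.03 ± 0.13. The Kruppel-like factor gene Klf15, of the list of short-lived transcripts, was lower by 1.00 ± 0.21.

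Of 37 plasma carrier proteins and apolipoproteins 1 rose and 1 fell (2.70% each, against 4.09% and 4.00% of all tested genes). None was called without WT 0 h replicate 3 or WT 1 h replicate 3, 1 without any other library but WT 0 h replicate 2, and 4 with no low-count filter or in a fit of the 2 groups alone. Of 35 coagulation and complement genes 3 fell (8.57%) and none rose, and 31 lay below 0 and 4 above (median -0.27). That list held 1 call without WT 0 h replicate 1, WT 1 h replicate 1 or WT 1 h replicate 3, and 5 or 6 in DESeq2, with library size alone, with no low-count filter or in the 2 groups alone. Apoa4, an apolipoprotein of triglyceride transport, went from 633, 722 and 558 to 1860.2, 1918 and 3319 CPM (1.89 ± 0.43, adjusted p = 0.0112 in edgeR's quasi-likelihood test). WT 1 h replicate 3 was highest, and the call was lost without it or without WT 0 h replicate 3 (0.0540 to 0.0560). Albumin (Alb) was not called (0.33 ± 0.14, adjusted p = 0.1698 in the same test), and Mug1, a protease inhibitor of the macroglobulin family, fell by 0.83 ± 0.15.

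Levels at later times are given as a description, from other mice. Jun averaged 168 ± 63.9 CPM (SD, n = 3) at 3 h, against 462 ± 58.4 CPM at 12 h. Btg2 averaged 92.3 and 468 CPM. Others were high at 1 h alone among these times: Acot2 averaged 39.2, 10.2 and 15.2 CPM at 1, 3 and 12 h, and Tbx3 35.6, 14.9 and 13.0 CPM. Hspa1b averaged 17.1, 1.00 and 1.58 CPM at these times. Of the genes that fell, Il1r1 averaged 40.8 CPM at 1 h and 179.98 CPM at 3 h, above its 0 h mean of 122 CPM. Map2k6 stayed low, with averages of 6.40 and 4.01 CPM at 3 and 12 h, and Erbb3 averaged 51.9 and 28.7 CPM. None of these later levels was tested here.

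**Figure D4:**
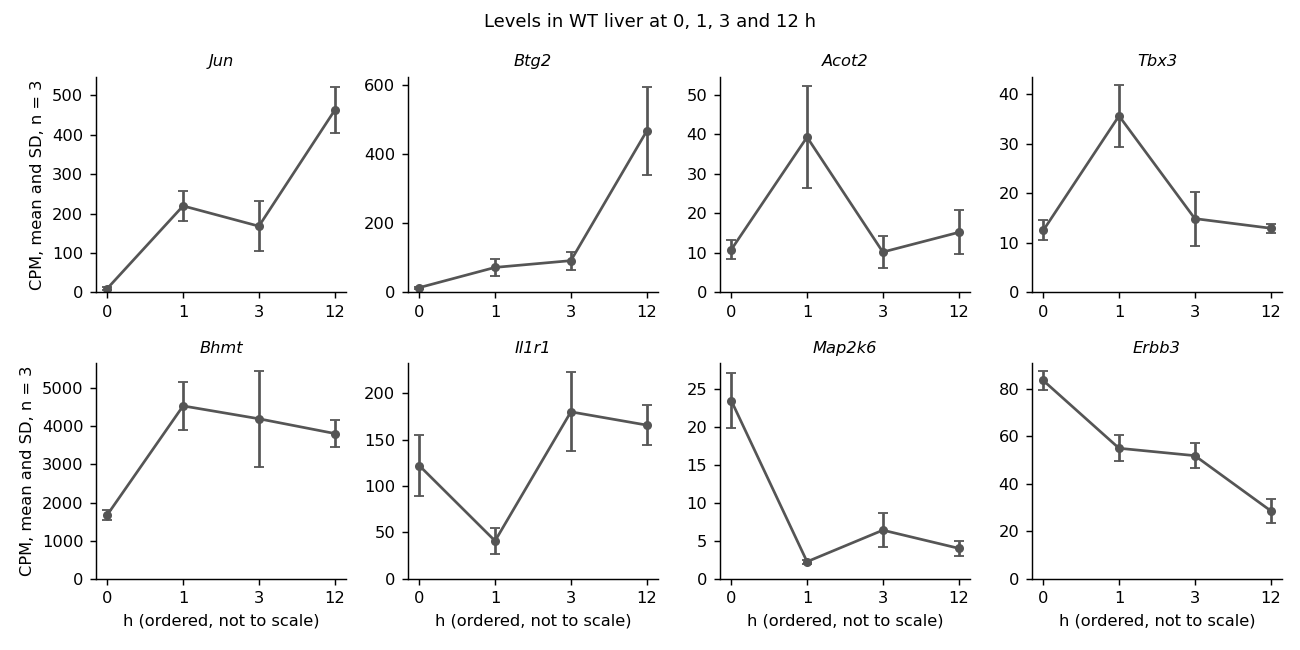
Mean level (CPM) with SD of 3 WT mice at 0, 1, 3 and 12 h for 8 genes, each panel starting at 0 CPM. Acot2 and Tbx3 peak at 1 h, Il1r1 is lowest at 1 h, and Jun and Btg2 have their highest mean at 12 h.

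The same hour in KO mice gave 1001 calls (7.58%), 521 higher (3.95%) and 480 lower (3.64%) at an adjusted p of 0.05. There were 567 calls without KO 1 h replicate 2 and 1205 without replicate 1, the library whose label is uncertain. In both genotypes and in the same direction 379 genes were called, which is 35.5% of the WT calls and 37.9% of the KO calls (375 genes without KO 1 h replicate 1). The difference of the 2 responses was called for 60 genes (0.454%), and for 83 without that library. Of the immediate early genes 13 of 29 rose in KO and none fell, and of the clock genes 3 of 23 rose and 10 fell (13 and none, and 3 and 11, without that library). In KO 5 of 40 members of the PPARA list and 3 of 23 heat shock genes fell and none rose, with medians of -0.25 and -0.19. Without that library these falls numbered 9 and 4. Whether the lists as such differ between the genotypes was not tested, but single genes were. Mgll rose in WT (0.68) and fell in KO (-0.42 ± 0.11), a difference of -1.10 ± 0.16 (adjusted p = 0.00156 in edgeR's quasi-likelihood test, and 0.00266 without KO 1 h replicate 1). Plin2 rose in WT (1.27) and had -0.09 ± 0.17 in KO, a difference of -1.36 ± 0.24 (adjusted p = 0.00634, and 0.0198 without that library). Both calls were kept without any 1 of the 12 libraries. For Hspa1b the difference was -2.63 ± 0.58 (adjusted p = 0.0374 in the same test), and it lost the call in 10 of 12 such fits (0.0510 to 0.168).

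**Figure D5:**
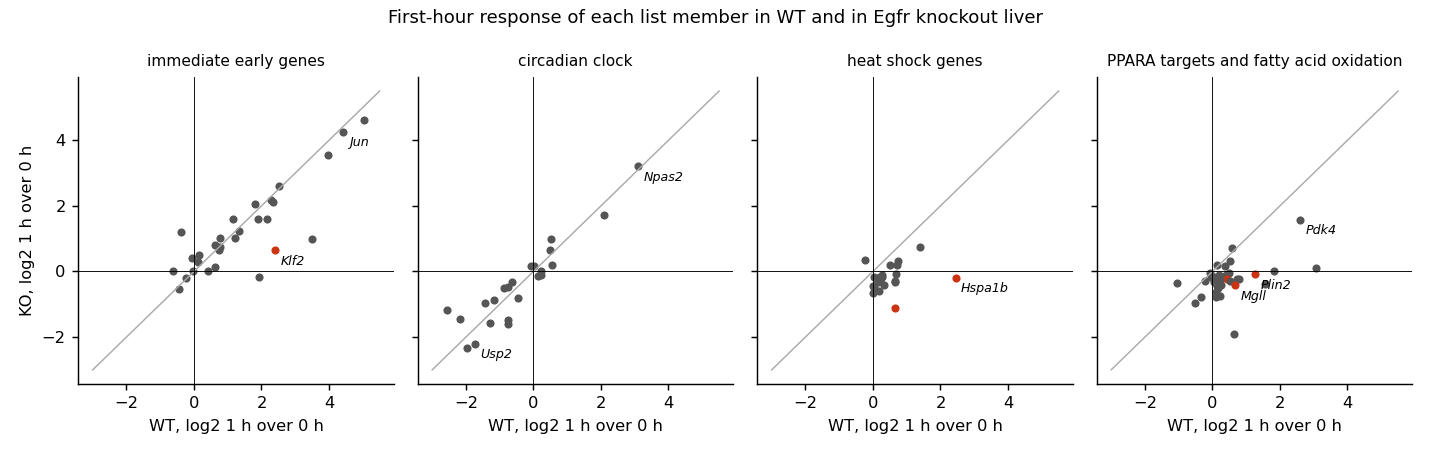
Log2 fold change from 0 h to 1 h in KO liver (vertical axis) against that in WT liver (horizontal axis) for the tested members of 4 lists, with genes whose responses differ by the test in red and equal responses on the grey line. Most immediate early and clock genes lie near the line, while Plin2, Mgll and Hspa1b lie above 0 in WT and below 0 in KO.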

How the data were processed

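PolyA RNA from whole liver, extracted with TRIzol and sequenced on an AVITI instrument per the labels' protocols, was counted per gene with STAR on mm39, per the submitters' processing notes. Which version and which gene models were used is not stated in the sources here. The authors deposited raw read counts per gene, 1 file per library, without strand and for each strand; the counts without strand were used. Reads on no gene (21.3% to 22.7% of all reads in the 6 WT libraries), on more than 1 gene (26.3% to 29.2%), unmapped or multimapped were left out of library sizes.

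All 24 libraries entered 1 fit in edgeR 4.0.16 (R 4.3.3, limma 3.58.1), with TMM scaling, filterByExpr over the 8 groups (13204 of 50657 genes kept, at least 99.4% of the gene counts) and the robust quasi-likelihood F-test, two-sided, with Benjamini-Hochberg adjustment over all tested genes. The SE is the log2 fold change divided by the square root of F. All adjusted p-values come from this test unless another tool is named. Counts for this comparison (13204 genes) were simulated from the fitted spread, with 100 genes changed by 1 and 100 by 2 on the log2 scale. Of the changed genes that the filter kept, 60.2% and 92.9% were called, with 5 false among 156 calls. The simulated counts follow the model of the test itself, so these rates need not carry over to the real data. Replicates of a group differed by more than sampling noise (chi-square per degree of freedom 4.59 to 16.7). P-values weigh each change against the spread between mice of a group, estimated over all 8 groups and not the 2 compared alone. At 3 mice a group an exact permutation test cannot go below 0.10, so none is given.

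The 44 gene groups, 23 families and 15 marker lists, and the members described, were chosen with earlier results of these data known, and counts of a list are descriptions. A gene can stand in more than 1 list, as Btg2, Gdf15, Fgf21 and Dusp1 do, so counts of different lists share genes. Genes were named by rule: up to 10 in each direction by fold change and 10 by change in CPM, among called genes with at least 5 CPM and no overlap of libraries; the called members of each list, up to 8 in each direction or all for some lists; leading markers; the genes whose response differs most between genotypes; and a few fixed genes. Genes outside it are marked where they appear. Motifs were matched by letters in RefSeq promoters of GRCm38.p6, a build other than that of the counts, so promoters were joined to genes by symbol. Alternatives were DESeq2 1.42.0, RLE scaling, no low-count filter, library size alone, at least 1 CPM in 3 libraries, only the groups compared, a replicate block, gene-strand counts, counts without ribosomal RNA loci, and each library left out.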

Additional observations from a re-analysis of the deposited data

Results flagged for a closer look

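For 18 of the genes named above, the response to the first hour differed between the genotypes by the test of the difference itself (KO response minus WT response, log2, edgeR's quasi-likelihood test at an adjusted p of 0.05). This is why they are singled out here. All 18 were also called in WT, so the choice of genes favoured differences opposite in sign to the WT change. The sign of the differences is therefore no separate result. Over all tested genes the difference was called for 60, of which 21 lay above 0, 39 lay below 0 and 44 were called in WT. The library labelled KO 1 h replicate 1 has an Egfr level within the WT range at 1 h, so its label is uncertain and the test was repeated without it.

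Genes that rose in WT mice and did not pass in KO mice gave differences below 0. Id2, the inhibitor of helix-loop-helix factors, changed by 1.70 in WT and -0.46 in KO, a difference of -2.16 ± 0.30 (adjusted p = 0.00156). Klf2, a transcription factor known from endothelium, changed by 2.40 and 0.65 (difference -1.76). Tbx3 changed by 1.51 and -0.29 (difference -1.79), Elovl5 by 0.94 and -0.14 (difference -1.09) and Plin2 by 1.27 and -0.09 (difference -1.36). Hspa1b gave a difference of -2.63, Tuba1c of -1.32 and Slc25a22 of -1.02. In 2 genes the KO response was called as well: Tubb2a rose in both genotypes, by 2.82 and 0.93 (difference -1.89), and Mgll went in opposite directions (difference -1.10).

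Genes that fell in WT mice gave differences above 0. Map2k6 fell by 3.39 in WT and by 0.97 in KO, where it was also called, a difference of 2.41 ± 0.37 (adjusted p = 0.00156). Cyp3a25 changed by -0.996 in WT and 0.34 in KO, a difference of 1.34 ± 0.22 (adjusted p = 0.00278), and Cyp3a59 gave a difference of 1.94. The sterol exporter genes Abcg5 and Abcg8 changed by -1.38 and -1.23 in WT and by -0.27 and -0.34 in KO, differences of 1.11 and 0.89. Setdb2 gave a difference of 4.27, but in KO its mean was 0.31 CPM at 0 h already, against 5.24 CPM in WT. Tent5c gave a difference of 1.37. Cd163 changed by -1.05 in WT and 0.42 in KO, a difference of 1.47, and the summed Kupffer markers moved with it as given above.

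Levels at 0 h were not alike in all of these genes. Mean levels at 0 h were 16.7 CPM in WT and 39.3 CPM in KO for Id2, 12.5 and 22.3 CPM for Tbx3, 4.35 and 8.55 CPM for Tuba1c, and 3.76 and 8.03 CPM for Tubb2a. They were 22.5 and 12.2 CPM for Cd163, and 23.5 and 11.8 CPM for Map2k6. The difference between the genotypes at 0 h was not tested.

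Of these 18, only Cyp3a25, Id2, Map2k6, Mgll and Plin2 kept the call without any 1 of the 12 libraries, and the other 13 lost it at least once (adjusted p from 0.0503 to 0.168 where lost). Without KO 1 h replicate 1 the calls of Abcg5 (0.0592), Cd163 (0.0622), Cyp3a59 (0.0532), Slc25a22 (0.0602) and Tuba1c (0.0637) were lost.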

How the results depend on the processing

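The 1068 calls between WT 1 h and 0 h became 720 to 1159 under the 9 other settings and 684 (without WT 1 h replicate 1) to 800 (without WT 0 h replicate 2) with 1 library left out. The replicate numbers do not pair the mice: deviations of same-numbered WT mice correlated at 0.0949, 0.126 and -0.0652, and a replicate block gave 1064 calls for WT, 1069 for KO and 76 for the difference of the responses, with 1017, 977 and 59 of the calls without the block kept. Among the named genes it ended the call of Slc25a48 in WT (adjusted p = 0.0572) and that of the difference for Cyp3a59 (0.058). That difference, called for 60 genes, depended most on the settings: DESeq2 called 112 and edgeR with no low-count filter 217, and with 1 library left out it was 15 (without KO 1 h replicate 2) to 83 (without KO 1 h replicate 1). The 1001 KO calls became 682 to 1231 under other settings and 567 to 1205 with 1 library left out. Of 94 named genes called in WT, 87 kept the call without any 1 library, and Apoa4, Cyp2e1, Ddit3, Fgf21, Papss2, Slc25a48 and Ugp2 lost it as given above. No named gene reversed. Other settings ended the difference for Cd163 (gene-strand counts, 0.105), Cyp3a59 (no filter, 0.0537), Slc25a22 (gene-strand counts, 0.0535, and groups compared alone, 0.0939), Tuba1c (library size alone, 0.0515, and gene-strand counts, 0.0551) and Tubb2a (groups compared alone, 0.0742). The causes were not tested. Genes at a few CPM rest on few reads, so an uncalled gene at that level may have changed.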
